A study of Rattus norvegicus with 4 samples.

Results

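The miRNAs whose packaging into matrix vesicles (MVs) differed between the growth plate zones by more, or by less, than the cells themselves differed were described with a ratio of ratios. For each miRNA, the MV to cell ratio in the resting zone (RC) was divided by the MV to cell ratio in the growth zone (GC), each value being the percent of the library's miRNA reads. The same number is the zone ratio of the vesicles (RC-MVs over GC-MVs) divided by the zone ratio of the cells (RC-cells over GC-cells), so a value of 1 means that vesicles of the zones differed exactly as their parent cells did. A value above 1 means relatively more of the miRNA in RC-MVs than the cells account for, and a value below 1 relatively more in GC-MVs; such low values are also given as their inverse, in folds toward GC. The measure was computed for every miRNA with at least 10 reads in all 4 libraries, which gave 262 of the 538 miRNAs with any read, out of 740 names in the table.

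All 4 groups came from costochondral cartilage of male Sprague Dawley rats, from which resting zone and growth zone (prehypertrophic and upper hypertrophic) chondrocytes were grown separately to confluence at passage 4 in medium with ascorbic acid and exosome-depleted bovine serum. RC-cells and GC-cells are these cultures, and RC-MVs and GC-MVs are the vesicles that trypsin released from their cell layers, collected by sequential centrifugation. No sample carried a transgene or received a test agent, and whether animals were pooled is not given in the sources used here. Small RNA was sequenced from 1 library per group, so no value has a replicate check, no test was made, and each interval below is a 95% interval for counting error only, in which PCR copies are treated as if they were separate molecules. The libraries held 6517329 (RC-cells), 7414467 (GC-cells), 1108821 (RC-MVs) and 982543 (GC-MVs) miRNA reads, of which the 262 miRNAs made up 99.7% to 99.8%.

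A miRNA is cut from a hairpin precursor that holds an arm on each side, named 5p and 3p. In cells, one arm is usually kept in the Argonaute protein as the guide strand and pairs with messenger RNAs through its seed, bases 2 to 8, while the other, the passenger, is mostly degraded. Matrix vesicles are membrane particles that chondrocytes release into the extracellular matrix, where those of the growth zone are known as sites of early mineral deposition.

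The sequences below belong to the miRNAs on which the results turn. They were taken from RefSeq (rat genome build GRCr8), run 5′ to 3′, and have the seed in capitals. The first set holds the arms of 4 precursors of which both arms were measured, shown because the arms of each went apart in the vesicles. Mir148a lies on the minus strand with its arms at chr4:81664483-81664505 (5p) and chr4:81664447-81664467 (3p), where the annotation gives no host gene. Mir27a is at chr19:40859655-40859676 (5p) and chr19:40859614-40859634 (3p), also on the minus strand with no host gene. The arms of Mir30c2 are at chr9:33253695-33253717 (5p) and chr9:33253735-33253756 (3p), within a long non-coding RNA gene, and those of Mir152 at chr10:82329397-82329419 (5p) and chr10:82329435-82329455 (3p), within the span of the coding gene Copz2.
miR-148a-5p: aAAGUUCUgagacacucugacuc
miR-148a-3p: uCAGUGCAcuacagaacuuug
miR-27a-5p: aGGGCUUAgcugcuugugagca
miR-27a-3p: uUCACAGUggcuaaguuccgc
miR-30c-2-3p: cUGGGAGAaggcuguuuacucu
miR-30c-5p: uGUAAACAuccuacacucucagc
miR-152-5p: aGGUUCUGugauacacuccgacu
miR-152-3p: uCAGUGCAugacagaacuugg

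The second set holds 3 members at the low end of the ratio of ratios and 3 that share the seed AAAGUGC. miR-16-5p is at chr2:155555343-155555364, within the span of Smc4, and miR-126a-3p is at chr3:29813219-29813240, within that of Egfl7. miR-369-3p, at chr6:134579507-134579527, lies in the imprinted Dlk1-Dio3 domain. miR-106b-5p (chr12:22157103-22157123) and miR-93-5p (chr12:22156894-22156916) lie on the minus strand within the span of Mcm7, and miR-17-5p has a copy at chr15:98587861-98587883.
miR-16-5p: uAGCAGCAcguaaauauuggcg
miR-126a-3p: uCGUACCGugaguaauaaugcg
miR-369-3p: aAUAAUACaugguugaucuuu
miR-17-5p: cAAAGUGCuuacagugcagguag
miR-106b-5p: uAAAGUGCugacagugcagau
miR-93-5p: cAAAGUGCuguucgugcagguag

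The third set holds 3 members at the high end of the ratio of ratios, which differ in seed from each other and from the members above. miR-193a-5p is at chr10:65170336-65170357, miR-490-3p at chr4:66014644-66014665, within Chrm2, and miR-376a-3p at chr6:134559421-134559441, in the Dlk1-Dio3 domain.
miR-193a-5p: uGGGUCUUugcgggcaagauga
miR-490-3p: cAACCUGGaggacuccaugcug
miR-376a-3p: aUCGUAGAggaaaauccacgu

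Vesicles of the zones differed more than their cells. Of the 262 miRNAs, 90 (34.4%) were at least 2-fold apart between RC-MVs and GC-MVs, 61 of them higher in RC-MVs, against 25 (9.54%) between RC-cells and GC-cells, 20 of them higher in RC-cells. The median size of the log2 zone ratio was 0.63 in the vesicles and 0.43 in the cells, with standard deviations over miRNAs of 0.98 and 0.60. Across the 262 miRNAs the zone ratios of vesicles and cells were related, with a Pearson r of 0.53 and a Spearman rho of 0.51. These describe miRNAs of the same 4 libraries, which are not independent replicates. The counts by direction hold for percents of all miRNA reads. TMM normalization gave factors of 1.06 for RC-cells, 0.843 for GC-cells, 1.13 for RC-MVs and 0.985 for GC-MVs. It thus lowers every zone ratio of RC over GC, in the cells by more than in the vesicles. Differences near 2-fold toward RC can then be lost, and others toward GC gained.

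The log2 ratio of ratios had a median of -0.0035, quartiles of -0.64 and 0.54, and a range from -2.76 to 2.04. It was at least 2 for 30 miRNAs (11.5%), more in RC-MVs than the cells account for, and at most 0.5 for 33 (12.6%), more in GC-MVs, so 63 (24.0%) were past 2-fold in either direction. The split moved with the scaling, to 36 and 24 with TMM normalization and to 13 and 61 when miR-143-3p and the other 2 most abundant miRNAs were left out of the library totals. The counting interval excluded 1 for 78 miRNAs higher in RC and 87 higher in GC, and held 1 for 97. For 2 of the 63, miR-374-5p and miR-92a-1-5p, the interval held 1. Calls were more common among sparsely read miRNAs, at 39 of the 131 (29.8%) with under 100 reads in some library, against 11.7% of the 60 with 1000 or more reads in all 4.

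**Figure D1:**
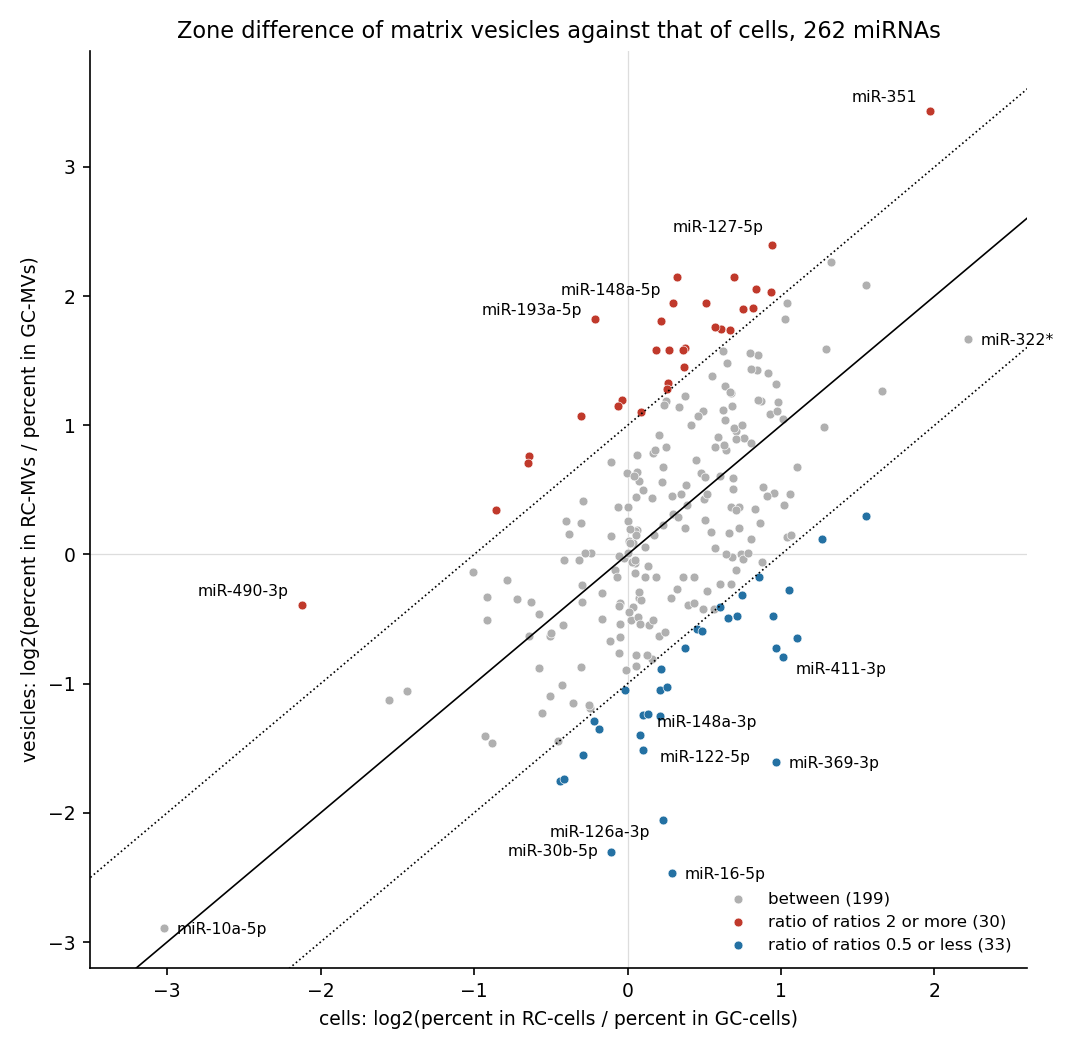
Zone difference of the vesicles (y axis, log2 of RC-MVs over GC-MVs) against that of the cells (x axis, log2 of RC-cells over GC-cells) for 262 miRNAs, each from 1 library per group. The solid line marks equal zone ratios and the dotted lines a ratio of ratios of 2 and 0.5; 30 points lie on or above the upper line, 33 on or below the lower one, and miR-10a-5p lies near the solid line at the far lower left.

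The 90 vesicle differences divided as follows. For 43 of them (47.8%), 26 higher in RC and 17 in GC, the ratio of ratios was also past 2-fold in the same direction. For 12, the cells were themselves at least 2-fold apart in the same direction, and miR-351 alone met both conditions. The remaining 36 fell past 2-fold only when a smaller cell difference and a smaller packaging difference were multiplied. In 14 of the 90 the cells leaned the opposite way, 10 of these higher in GC-MVs and 4 in RC-MVs.

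A vesicle difference that followed the cells was seen for miR-10a-5p, which is encoded in a Hox gene cluster and marks body position. It made up 0.0809% of RC-cells, 0.657% of GC-cells, 0.0522% of RC-MVs and 0.388% of GC-MVs. The GC library was the higher in both cells and vesicles, by 8.11-fold and 7.43-fold, and the ratio of ratios was 1.09 (0.996 to 1.20). In all, 21 of the 90 vesicle differences had a ratio of ratios within 1.5-fold of 1, 16 of them higher in RC. miR-143-3p, an abundant miRNA of mesenchymal and smooth muscle cells, was among the 5 higher in GC. It took 11.2% of RC-cells, 20.7% of GC-cells, 11.8% of RC-MVs and 32.4% of GC-MVs, with a ratio of ratios of 0.671 (0.667 to 0.676). Which miRNAs lie within 1.5-fold of 1 moved with the scaling. Without the 3 most abundant miRNAs in the totals, miR-143-3p itself among them, its log2 ratio of ratios was -0.89. With TMM normalization that of miR-542-3p, another of the 21, was 0.66. Both values lie outside 1.5-fold of 1.

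The X-linked miR-322/miR-503/miR-351/miR-450/miR-542 cluster was the group in which cells differed most, with median log2 zone ratios of 1.66 in the cells and 1.67 in the vesicles over its 5 members. The cluster is transcribed as one unit and its miR-322 is a relative of miR-16. miR-542-3p stood at 0.0429% in RC-cells, 0.0146% in GC-cells, 0.0358% in RC-MVs and 0.00845% in GC-MVs, and was thus higher in RC in both compartments, with a ratio of ratios of 1.44 (1.13 to 1.85). miR-351 went further in the vesicles, at 0.0833% of RC-cells, 0.0212% of GC-cells, 0.119% of RC-MVs and 0.0110% of GC-MVs. Its zone ratio was 3.92 in cells and 10.8 in vesicles, and its ratio of ratios 2.76 (2.25 to 3.38). The other 3 members had the opposite sign, with log2 ratios of ratios of -0.55 for miR-322*, -0.39 for miR-450a-5p and -1.26 for miR-322, the last from 18 and 13 reads in the vesicle libraries of RC and GC.

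The lowest ratio of ratios belonged to miR-16-5p, which restrains cell cycle genes and is abundant in many cells, blood cells included. It had 3856 and 3582 reads in the RC-cells and GC-cells but only 74 and 362 in their vesicles, or 0.0592%, 0.0483%, 0.00667% and 0.0368%. The cells of the zones held about equal shares and the RC-MVs held the least, so that the ratio of ratios was 6.76-fold toward GC (5.24 to 8.72). miR-30b-5p had 1495 and 1829 reads in RC-cells and GC-cells and 102 and 446 in RC-MVs and GC-MVs, a ratio of ratios 4.59-fold toward GC (3.66 to 5.75). For both, the cell libraries were within 1.5-fold of each other and the difference lay between the vesicle libraries.

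Next to these stood miR-126a-3p, which endothelial cells express from the gene Egfl7. It had 1614 reads in RC-cells, 1565 in GC-cells, 167 in RC-MVs and 615 in GC-MVs, and was 4.88-fold toward GC (4.05 to 5.86). miR-122-5p, the defining miRNA of liver and common in serum, had 32 and 34 reads in the RC-cells and GC-cells against 4447 and 11225 in their vesicles. It was nearly absent from the cells of both zones and was 3.05-fold toward GC (1.88 to 4.95). For the vesicles, the paper's RT-qPCR gave the reverse direction, with miR-122-5p higher in RC-MVs, while its PCR array table lists miR-122-5p on the GC-MV side. The RT-qPCR also found the leukocyte marker miR-150-5p higher in RC-MVs, here at 33 reads against 41 in GC-MVs. It found no significant zone difference in vesicles for miR-126a-3p and the erythroid marker miR-451-5p. The array table lists these too on the GC-MV side. Sums of erythroid, leukocyte, endothelial, liver and muscle markers were higher in GC-MVs than in RC-MVs. In GC-MVs, miR-126a-3p gave 615 of 629 endothelial reads and miR-122-5p 11225 of 11592 liver reads. The endothelial and liver sums thus largely repeat the values above. miR-451-5p gave 1401 of 1558 erythroid reads there, while miR-144-3p was nearer to even, at 0.0130% of RC-MVs and 0.0156% of GC-MVs. The 3 erythroid markers summed to 0.000123% of RC-cells, 0.000162% of GC-cells, 0.0746% of RC-MVs and 0.159% of GC-MVs, and the 4 leukocyte markers to 0.00114%, 0.00107%, 0.0141% and 0.0313% in the same order. The 2 endothelial markers summed to 0.0266%, 0.0223%, 0.0158% and 0.0640%, and the 3 liver markers to 0.0284%, 0.0393%, 0.418% and 1.18%. The 4 muscle markers summed to 0.000368% of RC-cells, 0.000715% of GC-cells, 0.00171% of RC-MVs and 0.00733% of GC-MVs, so the cells leaned the same way. In RC-MVs and GC-MVs these sums came from 19 and 72 reads. The 3 neural markers had 4 and 6 reads in these vesicle libraries, too few to tell the zones apart, with miR-124-3p at 0 reads in all 4 libraries. Per the study's methods, exosomes had been spun out of the bovine serum before use. The part of RNA from other cell types, or left in the serum, in the values of miR-16-5p, miR-126a-3p and miR-122-5p was not tested.

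Among deeply read miRNAs, those with 1000 or more reads in every library, 3 of 60 were past 2-fold toward GC. miR-148a-3p, which is known to repress the DNA methyltransferase Dnmt1, made up 2.67% of RC-cells, 2.53% of GC-cells, 0.50% of RC-MVs and 1.32% of GC-MVs. The cells were alike and vesicles of both zones held less than their cells, RC-MVs the least, which gave a ratio of ratios 2.79-fold toward GC (2.70 to 2.88). miR-29a-3p, a repressor of collagen genes, had 29263 and 30400 reads in RC-cells and GC-cells and 1647 and 3433 in RC-MVs and GC-MVs, and was 2.58-fold toward GC (2.42 to 2.74). miR-26a-5p, with 59034 and 51712 reads in the cells and 1021 and 1497 in the vesicles, was 2.15-fold toward GC (1.98 to 2.33). Just short of the threshold was miR-199a-3p at 1.98-fold (1.92 to 2.05), and miR-423-5p (1.88-fold) and miR-23b-3p (1.87-fold) followed. With TMM normalization miR-26a-5p fell short of 2-fold, at a log2 value of -0.97. Without the 3 most abundant miRNAs in the totals, miR-199a-3p passed it, at -1.30. So did miR-23b-3p, at -1.22, and miR-423-5p, miR-23a-3p and miR-24-3p.

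The highest ratio of ratios belonged to miR-193a-5p, with 85 reads in RC-cells, 112 in GC-cells, 88 in RC-MVs and 22 in GC-MVs. RC-MVs held the largest share and the cells leaned slightly to GC, so that the ratio of ratios was 4.11 (2.38 to 7.08). miR-376a-3p, with 55, 50, 65 and 13 reads in the same order, followed at 3.54 (1.74 to 7.19). These intervals are wide because a vesicle library held few reads. miR-490-3p, whose gene lies within Chrm2, reached its 3.33 (2.01 to 5.52) by another route. It had 25 and 124 reads in the RC-cells and GC-cells but 100 and 116 in their vesicles, so the cells were 4.36-fold higher in GC and the vesicles were close to even.

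Of the 60 deeply read miRNAs, 4 were past 2-fold toward RC. miR-148a-5p, the partner arm of miR-148a-3p, had 6788 reads in RC-cells, 6284 in GC-cells, 12424 in RC-MVs and 2858 in GC-MVs. It was thus richer in the vesicles than in the cells of both zones and richest in RC-MVs, with a ratio of ratios of 3.13 (2.97 to 3.31). miR-127-5p, which is transcribed antisense to the retrotransposon-derived gene Rtl1, had 5386, 3186, 6458 and 1085 reads in the same order and stood at 2.74 (2.54 to 2.96). miR-125b-5p, a regulator of cell survival and differentiation, made up 1.34% of RC-cells, 1.04% of GC-cells, 1.03% of RC-MVs and 0.339% of GC-MVs and stood at 2.34 (2.25 to 2.43). miR-370-3p, also of the Dlk1-Dio3 domain, stood at 2.20 (2.10 to 2.30), and miR-127-3p (1.94) and miR-24-2-5p (1.81) came just below the threshold. These calls moved with the scaling: without the 3 most abundant miRNAs in the totals, the log2 values of miR-125b-5p and miR-370-3p were 0.91 and 0.82, short of 2-fold, and with TMM normalization that of miR-127-3p was 1.09.

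**Figure D2:**
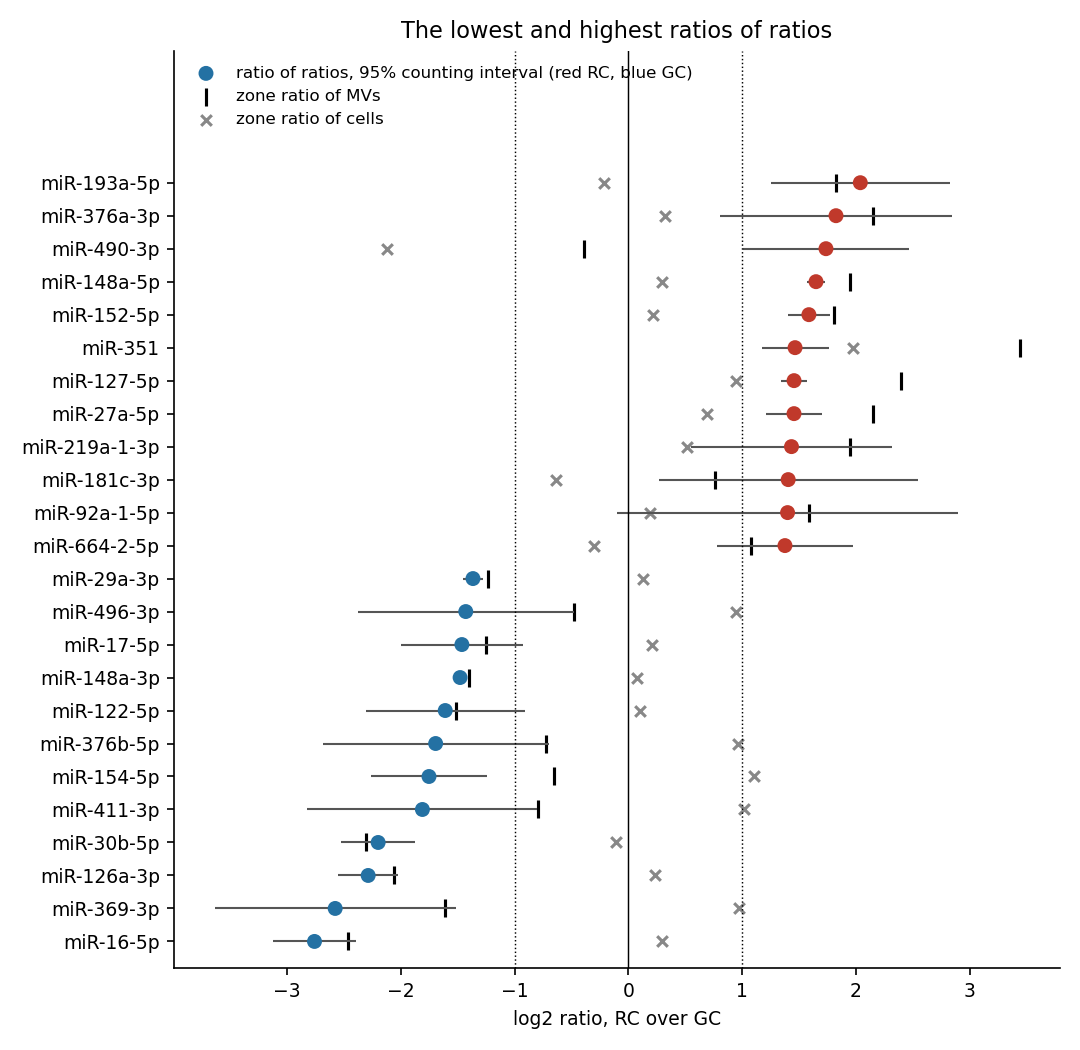
The 12 lowest and 12 highest log2 ratios of ratios (dots, with 95% counting intervals as lines), with the zone ratio of vesicles (bars) and of cells (crosses) of the same miRNA, all as log2 of RC over GC from 1 library per group. For miR-16-5p the vesicle ratio is -2.46 and the cell ratio 0.29, while for miR-490-3p the vesicle ratio is -0.39 and the cell ratio -2.12; the interval of miR-92a-1-5p crosses 0.

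A further 20 miRNAs were past 2-fold in the ratio of ratios although the vesicles of the zones differed by less than 2-fold, 4 toward RC and 16 toward GC. In 6 of the 20 the cells were at least 2-fold apart, and in 17 the zone ratios of cells and vesicles had opposite signs. miR-411-5p made up 0.357% of RC-cells and 0.172% of GC-cells but 0.0204% of RC-MVs and 0.0246% of GC-MVs. Its other arm, miR-411-3p, had 3412 reads in RC-cells, 1923 in GC-cells, 13 in RC-MVs and 20 in GC-MVs. Both arms were just over 2-fold higher in RC-cells, at log2 zone ratios of 1.05 and 1.01, and lower in RC-MVs than in GC-MVs. This put them 2.51-fold (2.09 to 3.01) and 3.50-fold (1.74 to 7.06) toward GC. The factors of TMM normalization lower both cell ratios to under 2-fold. In all, only 12 of the 25 miRNAs at least 2-fold apart between the cells were also at least 2-fold apart the same way between the vesicles. Both counts are for percents of all miRNA reads and, as said above of zone ratios, can change with the scaling.

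The 10 most abundant miRNAs had a median size of the log2 ratio of ratios of 0.58, against 0.59 over all 262. miR-21-5p, a miRNA common in cultured cells, took 42.7% of RC-cells and 41.9% of GC-cells, and 17.2% of RC-MVs and 17.9% of GC-MVs, with a ratio of ratios of 0.944 (0.937 to 0.950). miR-22-3p, richer in vesicles than in cells at 20.3% of RC-MVs and 17.0% of GC-MVs against 2.23% and 2.22% of the cells, stood at 1.19 (1.18 to 1.20). The direction of both depends on the scaling. The log2 value of miR-21-5p was 0.05 with TMM normalization, and that of miR-22-3p was -0.06 without the 3 most abundant miRNAs in the totals. Of the 10 most abundant, miR-148a-3p was the only one past 2-fold, and the log2 ratio of ratios of the other 9 lay between -0.57 (miR-143-3p) and 0.95 (miR-127-3p). With TMM normalization miR-127-3p was past 2-fold too, at 1.09.

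Arms of the same precursor agreed in the cells and went apart in the vesicles. Both arms were measured for 73 precursors, made of 144 names because miR-30c-5p and miR-125b-5p are each shared by a pair of them. Some other arms, such as miR-92a-3p and miR-24-3p, also have another locus, and reads of equal name were summed. The arm with the larger share of reads in the cell libraries was taken as the major arm, without regard to the vesicles. The log2 zone ratios of the major and minor arms in the cells had a Pearson r of 0.85 across the 73, a median distance of 0.22 and a largest distance of 0.66, so that 0 precursors had arms 2-fold or more apart. In the vesicles the r was 0.11, the median distance 0.85 and the largest 3.34, and 31 precursors had arms at least 2-fold apart. For the ratio of ratios the r was -0.04 and 31 precursors were at least 2-fold apart, 14 with the minor arm and 17 with the major arm higher in RC.

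The arms of 4 precursors were past 2-fold in opposite directions. In Mir148a, the minor arm miR-148a-5p stood at a log2 ratio of ratios of 1.65 and the major arm miR-148a-3p at -1.48, a distance of 3.13 (3.04 to 3.22), while their cell zone ratios were 0.30 and 0.08. In Mir27a, miR-27a-5p had 1961 reads in RC-cells, 1379 in GC-cells, 911 in RC-MVs and 182 in GC-MVs and stood at 1.46. The reads of miR-27a-3p in the same order were 8591, 6997, 192 and 257, and it stood at -1.08, a distance of 2.53 (2.16 to 2.90). In both precursors the 5p arm was higher in RC-MVs and the 3p arm higher in GC-MVs, from cells in which the arms leaned the same way.

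In Mir30c2 the arms were the other way round, the 3p arm being higher in RC-MVs and the 5p arm in GC-MVs. miR-30c-2-3p stood at 1.22 and miR-30c-5p at -1.26, a distance of 2.48 (2.09 to 2.87). miR-30c-5p is also made by Mir30c1, whose other arm, miR-30c-1-3p, stood at 0.64. In Mir92a1, miR-92a-1-5p stood at 1.40 and miR-92a-3p, which is also encoded by Mir92a2, at -1.11. Their distance of 2.50 (0.97 to 4.04) rests on 11 reads of miR-92a-1-5p in each cell library. Here too the arms were near-equal in their cell zone ratios, at 0.19 and 0.22. A scaling leaves the distance between arms as it is but can move an arm across the 2-fold threshold. Mir148a alone had both arms past it under all scalings run. Mir27a and Mir92a1 did not with TMM normalization or DESeq2's size factors (miR-27a-3p at -0.94 and -0.97), and Mir30c2 did not without the 3 most abundant miRNAs in the totals (miR-30c-2-3p at 0.91).

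Mir140, a precursor known for its expression in cartilage, is given although it was chosen after its values were seen. miR-140-5p had 4626 reads in RC-cells, 5993 in GC-cells, 94 in RC-MVs and 212 in GC-MVs, and was 2.24-fold toward GC (1.75 to 2.86). miR-140-3p had 24948, 37484, 10542 and 7799 reads in the same order, and was 1.58-fold toward RC (1.53 to 1.64). The 5p arm was poorer and the 3p arm richer in vesicles than in cells of both zones. The cartilage markers summed to 0.526% of RC-cells, 0.636% of GC-cells, 1.00% of RC-MVs and 0.841% of GC-MVs, of which miR-140-3p alone gave 0.951% of RC-MVs and 0.794% of GC-MVs. In the ratio of ratios the arms of Mir455 were close, a distance of 0.30 (-0.21 to 0.80) apart. In level, miR-455-5p was poorer in vesicles than in cells, at 0.0627% of RC-cells, 0.0439% of GC-cells, 0.0236% of RC-MVs and 0.0171% of GC-MVs, and miR-455-3p was richer, at 0.00970%, 0.00577%, 0.0167% and 0.00835% in the same order. miR-675-5p had 0 reads in all 4 libraries.

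In Mir181c and Mir411 both arms went the same way past 2-fold. miR-181c-5p and miR-181c-3p stood at 1.36 and 1.40, with log2 zone ratios in the cells of -0.65 and -0.64. Among the 22 precursors whose arms both had 100 or more reads in every library, 11 were at least 2-fold apart in the ratio of ratios and 0 in the cells, with an r of 0.91 in the cells and 0.00 in the vesicles.

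**Figure D3:**
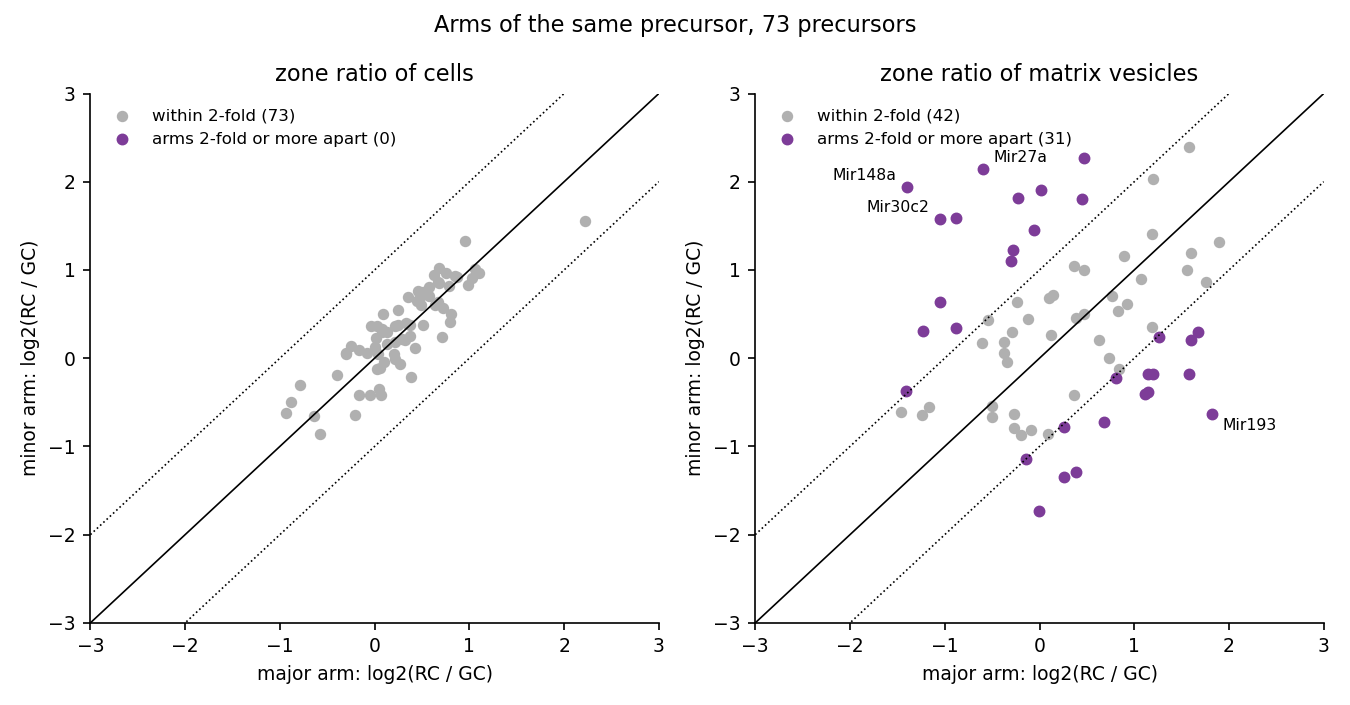
Log2 zone ratio (RC over GC) of the minor arm (y axis) against that of the major arm (x axis) of 73 precursors, in cells (left) and in matrix vesicles (right), from 1 library per group. The points of the cells lie along the solid line of equality with 0 outside the dotted 2-fold lines, while 31 precursors lie outside them in the vesicles.

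Base composition differed between the ends of the range. Of the 262 miRNAs, 238 had a RefSeq sequence under their name. Across these, the log2 ratio of ratios was related to the percent of G and C in the mature sequence with a Pearson r of 0.42 and a Spearman rho of 0.45, and a slope of 0.36 for each 10 percentage points. The same correlation was 0.31 for the zone ratio of the vesicles and -0.09 for that of the cells, and 0.35 for the ratio of ratios over the 53 deeply read miRNAs. Sorted by base composition into 4 bins of near-equal size, the bin with the least G and C had a median log2 ratio of ratios of -0.60, with 1 of 62 past 2-fold toward RC and 16 toward GC. In the bin with the most, the median was 0.40, with 11 of 59 toward RC and 2 toward GC. After a linear correction for base composition, 17 of the 238 were past 2-fold toward RC and 27 toward GC, in place of 26 and 31. Of the 62 arm pairs with both sequences, 29 were at least 2-fold apart in the ratio of ratios, and in 20 of these the arm with more G and C was the one higher in RC. The points share libraries and their read depth, and the part of library preparation in this relation was not tested.

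**Figure D4:**
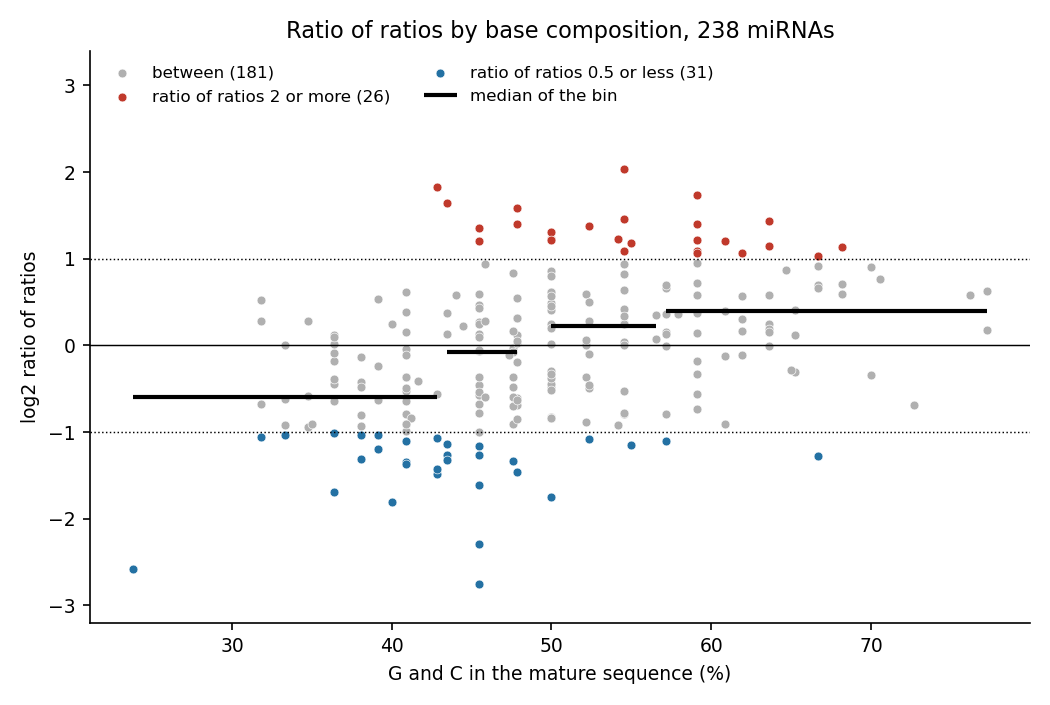
Log2 ratio of ratios (y axis) against the percent of G and C in the mature sequence (x axis) for 238 miRNAs, with the median of each of 4 bins of base composition as a black bar spanning its range. The medians of the bins step up from -0.60 through -0.07 and 0.22 to 0.40.

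By first base, the medians were 0.25 for G, 0.08 for A, -0.10 for C and -0.22 for U, the usual first base of guide strands. Of the 33 miRNAs past 2-fold toward GC, 31 had a sequence and 23 of these began with U, against 6 of the 26 toward RC and 92 of all 238. The median content of G and C was 45.5% for sequences that began with U, 47.8% for A, 52.4% for C and 59.1% for G. First base and base composition were not separated. The letters GGAG, known from studies of exosome sorting, were searched on the mature strand. They stood in 26 sequences (10.9%), against 8.09% of 692 rat mature sequences of RefSeq, and the miRNAs that held them had a median of 0.35, against -0.09 for those without. For GGCU, which was found in 35 sequences (14.7%, against 10.8% of the 692) and can overlap GGAG only at its ends, the medians were 0.12 and -0.04. The miRNAs with either run of letters were also richer in G and C, at a median of 54.5% each against 47.8% in those without.

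Members that share a seed were set side by side. The 4 members with the seed AAAGUGC (miR-17-5p, miR-20a-5p, miR-93-5p and miR-106b-5p) lay between -1.46 and -0.88, and the 3 with GGCAGUG (miR-34a-5p, miR-34b-5p and miR-34c-5p) between -0.85 and -0.63. The 4 with ACAUUCA, all of the miR-181 family, lay between 0.03 and 1.36. The 9 with GAGGUAG, the let-7 seed, lay on both sides of 0, from -0.67 to 0.62. Of the 3 with CAGUGCA, miR-148a-3p and miR-148b-3p stood at -1.48 and -1.35 but miR-152-3p at 0.16. Reads of such near-identical miRNAs may have been divided between them by the alignment.

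Clusters and families were described by their counts and medians, beside the median of -0.0035 over all members and the background of 11.5% past 2-fold toward RC and 12.6% toward GC. Another scaling adds the same amount to every log2 ratio of ratios, from -0.31 to 0.13 in the alternatives run, so medians nearer to 0 than this can change sign. Of 34 lists, 33 had members, and 198 of the 262 miRNAs were in a list.

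In the Dlk1-Dio3 domain, an imprinted region whose miRNAs are expressed from the maternal chromosome, the groups parted. The group antisense to Rtl1 had 17 members, 14 of them above 0, with a median of 0.59, and 5 past 2-fold toward RC against 0 toward GC. These 5 were miR-127-5p, miR-665, miR-540-3p, miR-434* and miR-673-3p. The lowest of the group was miR-136-3p at -0.90, while the partner arm miR-136-5p stood at 0.79. Without the 3 most abundant miRNAs in the totals, miR-127-5p alone of the 5 stayed past 2-fold toward RC and miR-136-3p passed it toward GC, at -1.21, with 11 of the 17 above 0. With TMM normalization 6 were past 2-fold toward RC, miR-127-3p being added. The neighbouring miR-379/miR-410 cluster had 37 members and a median of 0.06, but held both ends, with 3 past 2-fold toward RC and 9 toward GC (5 and 8 with TMM normalization, 1 and 12 without the 3 most abundant miRNAs in the totals). Its lowest was miR-369-3p, with 822 reads in RC-cells, 478 in GC-cells, 10 in RC-MVs and 27 in GC-MVs (5.96-fold toward GC, 2.86 to 12.4), and its highest miR-376a-3p. Median cell zone ratios were 0.85 for the Rtl1 group and 0.79 for the miR-379/miR-410 cluster, and those of the vesicles 1.32 and 0.68.

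Among growth-promoting families, the miR-17-92, miR-106a-363 and miR-106b-25 clusters, which drive proliferation, had 9 members and a median of -1.03, with 8 below 0 and 5 past 2-fold toward GC. miR-17-5p had 608 reads in RC-cells, 598 in GC-cells, 45 in RC-MVs and 95 in GC-MVs (2.76-fold toward GC, 1.90 to 4.00). The exception was the passenger arm miR-92a-1-5p. With TMM normalization only miR-17-5p and miR-19b-3p of the 5 stayed past 2-fold, and 7 members were below 0, while without the 3 most abundant miRNAs in the totals 6 were past it. The let-7 and miR-98 family, which promotes differentiation, had 15 members, a median of -0.52 and 1 past 2-fold toward GC (0 with TMM normalization and 3 without the 3 most abundant miRNAs in the totals). Its most abundant members differed in direction. The unlogged ratio of ratios was 0.693 (0.679 to 0.707) for let-7i-5p, toward GC, and 1.53 (1.49 to 1.58) for let-7c-5p, toward RC.

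The miR-99/miR-100 and miR-125 families, which share clusters with let-7 genes, lay toward RC, with 8 of 9 members above 0 and a median of 0.61, and miR-125b-5p alone past 2-fold (2 members with TMM normalization). All 6 members of the miR-181 family were above 0 (median 0.43, 2 past 2-fold), as were the 4 of the miR-193/miR-365 cluster (median 0.62, 1 past 2-fold, or 2 with TMM normalization). Toward GC lay 3 of the 4 members of the miR-29 family (median -0.82, 1 past 2-fold), with miR-29a-5p at 0.01, and the 5 of the miR-34/miR-449 family, which p53 induces (median -0.63, 0 past 2-fold). Leaving the 3 most abundant miRNAs out of the totals put 5 of the 6 miR-181 and 3 of the 4 miR-193/miR-365 members above 0, with 0 of the miR-99/miR-100 and miR-125 members, 2 of the miR-34/miR-449 members and 3 of the 4 miR-29 members past 2-fold. Both members of the miR-26 family were past 2-fold toward GC, miR-26a-5p at -1.10 and miR-26b-5p at -1.03, but neither was with TMM normalization, at -0.97 and -0.89.

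Some families had members past 2-fold on both sides. The miR-30 family had 10 members from -2.20 (miR-30b-5p) to 1.22 (miR-30c-2-3p) around a median of 0.03, with 2 past 2-fold in each direction, but 0 of them toward RC without the 3 most abundant miRNAs in the totals. The miR-148/miR-152 family had 6 members from -1.48 to 1.65 around a median of -0.22, with the same 2 past 2-fold in each direction under all scalings run. In the miR-23/miR-27/miR-24 clusters the median of 8 members was -0.59, with 1 past 2-fold in each direction, miR-27a-3p lowest and miR-27a-5p highest. With TMM normalization these counts were 2 toward RC and 0 toward GC, and without the 3 most abundant miRNAs in the totals 1 and 4. The 7 miRNAs often used as references lay between -0.91 (miR-423-5p) and 0.13 (miR-103-3p), with 0 past 2-fold, or 2 toward GC without the 3 most abundant miRNAs in the totals.

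**Figure D5:**
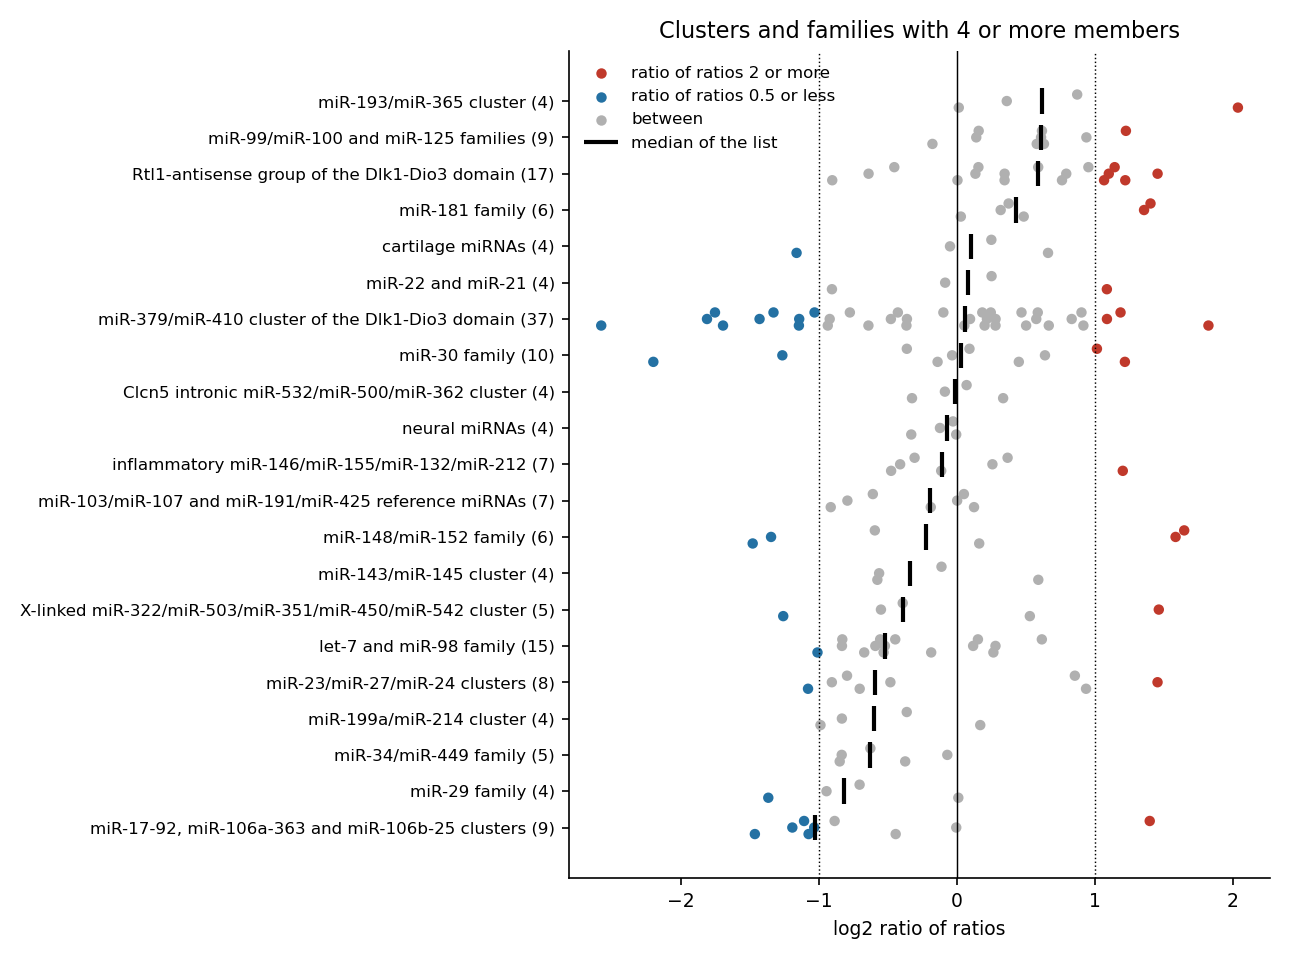
Log2 ratio of ratios (x axis) of the members of the 21 clusters and families with 4 or more members, with the number of members after each name; each dot is 1 miRNA and the black bar is the median. The Rtl1-antisense group lies mostly right of 0 with 5 dots past 2-fold, the miR-17-92, miR-106a-363 and miR-106b-25 clusters mostly left of it, and the miR-379/miR-410 cluster spans from -2.58 to 1.82.

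The minimum of 10 reads decided membership. Of the 276 miRNAs with reads that did not meet it, 49 had 100 or more reads in some library, and 44 of these fell short in vesicle libraries only. Those with the most reads in any 1 library were miR-365-3p (1466 in GC-cells but 4 in RC-MVs and 2 in GC-MVs), the erythroid miR-451-5p (1401 in GC-MVs and 681 in RC-MVs but 8 in GC-cells and 5 in RC-cells) and miR-379-3p (1103 in RC-cells but 9 in GC-MVs). The 6 members with exactly 10 reads in their lowest library had log2 ratios of ratios from -2.58 to 1.22, and the 9 miRNAs just below the minimum from -3.69 (miR-337-3p) to 1.82 (miR-1247-3p).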

How the data were processed

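The authors sequenced small RNA on an Illumina instrument, with 1 library for each of the cells and vesicles of both zones. They aligned the reads with Bowtie2 to the NCBI rat annotation release 105 (Rnor_6.0), used miARma-Seq to tabulate miRNAs, and deposited raw counts, as whole numbers for each annotated locus. Tool versions, trimming and how reads with several matches were handled are not given in the sources used here.

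From the deposited counts, loci of equal product name were summed, which joined several loci for 17 members, and a count was expressed as a percent of the library's miRNA reads. A ratio past 2-fold was called a difference. Intervals of log ratios used the sum of the reciprocal counts as variance. With 1 library per group no test was made. The deepest library held 7.55 times the reads of the shallowest, and the median standard error of the log2 ratio of ratios was 0.20 (0.005 to 0.77).

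The miRNAs named are the 12 highest and 12 lowest, the 6 highest and 6 lowest with 1000 or more reads in all 4 libraries, the 4 largest vesicle zone ratios in each direction with a ratio of ratios within 1.5-fold of 1, the 10 most abundant, the ends of lists, miRNAs whose MV to cell ratio lies on opposite sides of 1 in the zones, and 3 that missed the read minimum. Others were chosen after their values were seen: among them all arm partners and members named for a shared seed or precursor. The members and lists were chosen with earlier results of these data known. Sequences and positions were matched by name to RefSeq tables (GRCr8), which is not the build of the counts.

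Alternatives were edgeR 4.0.16 (TMM) and DESeq2 1.42.0 (size factors) scaling in R 4.3.3, totals without the abundant miR-143-3p, miR-22-3p and miR-21-5p, centring on the median, a pseudocount of 0.5, loci kept apart, a linear correction for G and C, minimums of 1 and 100 reads, intervals wholly past 2-fold, a 4-fold threshold and thinning to 982543 reads in 100 draws. Those on the arms of precursors were added after the data were seen. Calculations and figures were made in Python 3.11.15 (pandas 2.3.3, numpy 2.4.6, matplotlib 3.10.9, scipy 1.17.1). The calculations were tested on simulated data. A sheet of PCR array results was not used here.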

Additional observations from a re-analysis of the deposited data

Results flagged for a closer look

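For 17 miRNAs the MV to cell ratio lay on opposite sides of 1 in the zones, with neither counting interval holding 1. With 1 library per group the difference between the zones was not tested. Lower in vesicles than in cells in RC and higher in GC were 10 of them, with log2 ratios of ratios of -2.29 for miR-126a-3p, -2.20 for miR-30b-5p, -1.75 for miR-154-5p, -1.19 for miR-19b-3p, -0.88 for miR-93-5p, -0.78 for miR-28-5p, -0.68 for miR-221-3p, -0.64 for miR-329-3p, -0.59 for let-7d-5p and -0.56 for miR-145-3p. The reverse held for 7, at 1.46 for miR-351, 1.20 for miR-132-5p, 1.19 for miR-409a-3p, 0.94 for miR-125b-2-3p, 0.79 for miR-136-5p, 0.63 for miR-99a-5p and 0.62 for let-7c-5p. miR-126a-3p had the widest contrast, with log2 MV to cell ratios of -0.72 in RC and 1.57 in GC. For RC, the paper's PCR array and its RT-qPCR both gave the reverse direction, an enrichment of miR-126a-3p in the vesicles. The RC ratio here rests on 167 reads in the RC-MVs library, and the reason for the disagreement was not tested. miR-351 had the widest contrast in the other direction, with 0.51 in RC and -0.95 in GC.

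Which miRNAs lie on opposite sides of 1 depends on the scaling of the libraries. The count was 16 with TMM normalization, 15 with size factors and 21 without the 3 most abundant miRNAs in the totals. Shared by these scalings and the percents of all miRNA reads were 8, which are miR-126a-3p, miR-30b-5p, miR-19b-3p, miR-93-5p, miR-351, miR-409a-3p, miR-136-5p and miR-99a-5p.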

How the results depend on the processing

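Scaling moved all log2 ratios of ratios together, by 0.13 with TMM normalization (median 0.13), 0.11 with DESeq2's size factors (median 0.1048) and -0.31 without the 3 most abundant miRNAs in the totals (median -0.316). The counts past 2-fold toward RC and GC, 30 and 33 in the report, became 36 and 24, 35 and 24, and 13 and 61. Correction for G and C gave 17 and 27 of 238 miRNAs, and 34.6% in place of 47.8% of the vesicle zone differences past 2-fold in the ratio of ratios. With a minimum of 1 read the counts were 53 and 66 of 384 miRNAs, and with 100 reads 13 and 11 of 131. Intervals wholly past 2-fold left 11 and 10 miRNAs and 31.4% of 51 vesicle differences, and a 4-fold threshold 1 and 4 miRNAs and 25.0% of 12. Precursors with arms 2-fold apart, 31 of 73, became 11 of 22 with 100 reads for both arms and 12 with the whole interval. Thinned to equal depth, 27.0 of 60.7 precursors on average had arms 2-fold apart in the ratio of ratios, against 1.13 in the cells, and after correction for G and C 23 of the 62 pairs with both sequences, in place of 29. Since a scaling adds 1 constant to every value, its effect on a miRNA depends only on how near that miRNA lies to a threshold. Beyond this, the cause was not tested.

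No paired analysis was possible because replicates were lacking in every group. A difference between zones cannot be told apart from a difference between these 4 libraries, and the shallower vesicle libraries limit what can be said of miRNAs with few reads there.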
